A study of Homo sapiens with 6 samples.

Results

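Myosins are the motor proteins of the actin cytoskeleton. The genes described here were the 56 whose Ensembl 94 symbols name a myosin heavy chain (MYO and MYH followed by a number), a myosin light chain (MYL followed by a number) or a myosin light chain kinase (MYLK, MYLK2, MYLK3 and MYLK4), of 58735 genes in the count table. The members were chosen by symbol, and the family itself was chosen by the fall of MYO7B in this contrast, so the values of MYO7B are given as a description without a test. RNA-Seq was measured in BT549 cells, an established line of basal-like breast cancer. The DMSO group was 3 libraries (replicates A, B and C) of cells given the solvent DMSO, and the AS1842856 group was 3 libraries (replicates A, B and C) of cells given AS1842856, a small molecule that binds unphosphorylated FOXO1 and blocks its binding to DNA, both for 48 h. The dose is 200 nM in the sample labels and 1 μM in the study's methods. The comparison asked which genes responded to this compound.

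A conventional, class II myosin holds a pair of heavy chains, which carry the motor and a long tail that forms filaments, and on each heavy chain sit an essential and a regulatory light chain. In nonmuscle cells these filaments pull on actin to give tension, adhesion and the cleavage furrow, and phosphorylation of the regulatory light chain by the light chain kinase or by ROCK switches them on. The unconventional classes carry other tails and work as tethers and transporters: class I links membranes to actin, classes V and VI carry vesicles, class X builds filopodia, and class VII holds the protrusions of specialized epithelia and sensory cells.

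Of the 56 myosin genes, 27 passed a filter on low counts, 16 more had at least 1 count in some library, and 13 had none. The libraries held between 15289500 and 22981832 counts, and the myosin genes took between 0.495% and 0.53% of them. Across all genes 14338 were tested and 56.0% had an adjusted p under 0.05 (edgeR's quasi-likelihood test with Benjamini-Hochberg adjustment), 27.6% higher and 28.4% lower after treatment. Their median log2 fold change was 0.003. VIM, CD44, SPARC, FN1 and AXL, which mark mesenchymal basal-like cells, had DMSO means between 423 and 1322 CPM (counts scaled to a common library size). The DMSO means of ESR1, PGR and CDH1 were 0, 0.10 and 0.018 CPM, whereas ERBB2 and GATA3, on the list expected to be low, had DMSO means of 46.7 and 50.9 CPM. Markers of enterocytes, whose brush border uses MYO7B, were near 0, with CDX1, FABP1 and SI at 0 in every library and the 8 genes summing to between 0.638 and 1.13 CPM in DMSO and between 0.66 and 1.05 CPM in AS1842856. Of 5 blood cell markers 3 were at 0 in every library, CD3E and HBB among them, and the list, mainly PTPRC, summed to between 1.02 and 2.02 CPM in DMSO and between 3.48 and 4.65 CPM in AS1842856. Its part in the results was not tested. In a bulk library fewer cells that express a gene and less RNA per cell cannot be told apart.

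Apart from MYO7B, 26 myosin genes were tested, of which 6 were higher and 13 lower after AS1842856 treatment (27.6% and 28.4% of all genes tested) and 7 did not pass the test. Their median log2 fold change was -0.21, with a range from -1.96 to 2.10. The 3 libraries of each group did not overlap for 21 of the 26, against 59.9% of all genes. A fall of at least 2-fold was seen for MYO18A, MYO7A and MYLK, and a rise of that size for MYH15 (called with at least that size, 10.6% of all genes). Of these, MYO7A passed the filter on low counts through its DMSO libraries alone. Levels below are the deposited FPKM, which are per length and per library, while fold changes and adjusted p come from the fit to counts. The length used is all annotated exon bases of a gene, from 1932 for MYL12B to 22167 for MYLK, not that of the transcripts present. Orders, shares and ratios between genes are therefore approximate, while a change within a gene does not depend on that length.

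**Figure D1:**
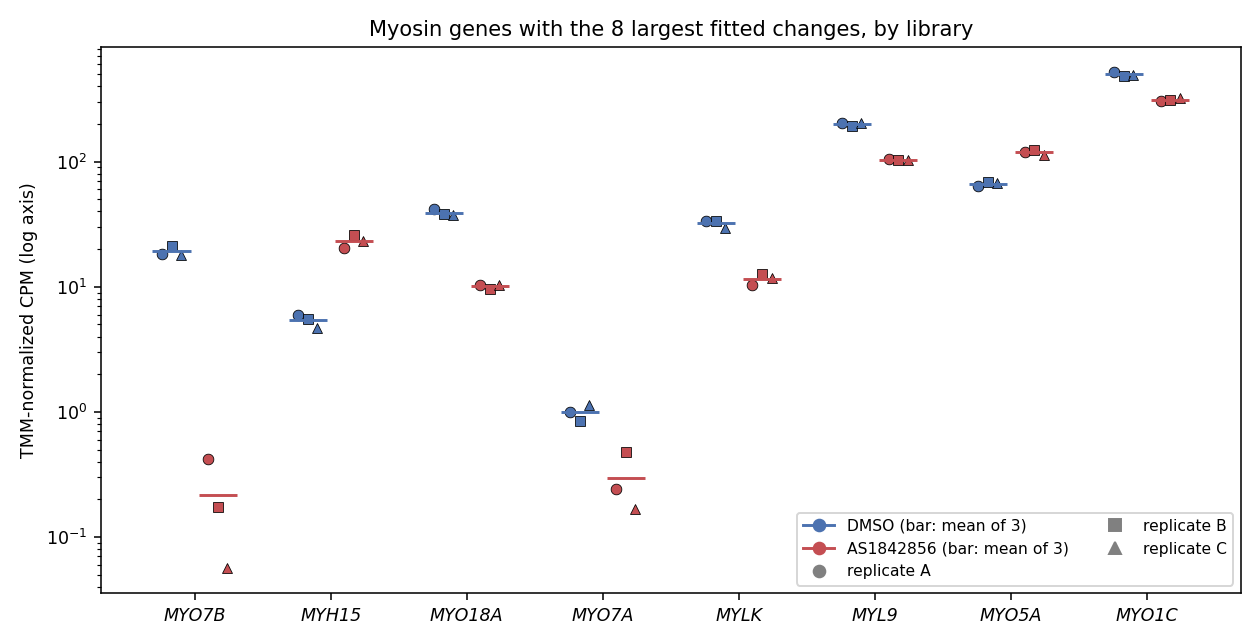
CPM of the 8 myosin genes with the largest fitted changes, on a log axis, with 1 point per library and a bar at the mean of the 3 libraries of each group. In all 8 genes the AS1842856 and DMSO libraries did not overlap, and MYO7B went from 402, 326 and 334 counts to 7, 4 and 1 counts.

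MYO7B (ENSG00000169994, chr2:127535802-127637729, plus strand, GRCh38) encodes a class VII heavy chain known from the microvilli of intestinal and kidney epithelium, where it holds the tips of neighboring microvilli together through protocadherins. It had 402, 326 and 334 counts in DMSO replicates A, B and C, and 7, 4 and 1 counts in the AS1842856 replicates. All 3 treated libraries lay far below all 3 controls, and together they held 12 counts of 57513403 (95% Poisson interval 6.2 to 21.0, counting error only) against 1062 of 55919993. The mean level went from 2.16 ± 0.199 to 0.0245 ± 0.021 FPKM (SD, n = 3 each). The fitted log2 fold change was -6.47 (SE 0.22), an 88.4-fold difference, and it ranked 3 from the lowest of all 14338 genes. That SE is derived from the test statistic and is smaller than counting error on 12 treated counts allows. Without AS1842856 replicate A the value was -7.21, outside the 95% interval drawn in the figures (-6.91 to -6.02). In DMSO the gene ranked 17 of the 27 myosin genes by FPKM, just below MYO18A and above MYLK with no overlap of libraries on either side, and after treatment it ranked 27, with libraries that overlapped those of MYO7A, the next above it. None of the 50-base words in its exons was shared with another annotated gene, MYO7A included.

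MYO7A (chr11:77128264-77215241, plus strand) encodes the other class VII heavy chain, which works in the stereocilia of hair cells and in the retina. It was barely expressed, with 22, 13 and 21 counts in DMSO and 4, 11 and 3 counts in AS1842856. Every treated library was below every control, and the gene fell by 1.66 on the log2 scale (SE 0.47, adjusted p = 0.0012). MYO7A passed the filter through its DMSO libraries alone, at 0.846 to 1.13 CPM against 0.168 to 0.482 CPM in AS1842856. Being higher in DMSO was thus part of why it was tested, and its adjusted p is weak support for a fall. With no filter on low counts it was still among the 13 genes called lower. At these counts the size is loose: without AS1842856 replicate B it fell by 2.26. Of the genes whose proteins work with class VII motors, WHRN and CIB2 fell by 0.67 (SE 0.06, adjusted p = 1.90e-20) and 0.78 (SE 0.28, adjusted p = 0.0134). CDHR2, a protocadherin of the microvillar tip links, did not pass the test at a log2 fold change of 0.27 (SE 0.48, adjusted p = 0.661). CALML4 did not pass it either, at 0.00 (SE 0.63, adjusted p = 0.999). The scaffolds USH1C, ANKS4B and USH1G had 0 counts in every library, and CDHR5, CDH23 and PCDH15 had too few to be tested.

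RefSeq promoter windows, 250 bases before to 50 bases after a transcript start in GRCh38.p14, were found for 43 of the 56 genes, 57 windows in all. MYO7B had a pair of starts, the second inside the gene. The 250 bases before each start are shown, 5′ to 3′, beside those of MYH9, the most abundant myosin gene, because they differ in CpG dinucleotides, which are in capitals.
MYO7B, first start, chr2:127535433-127535682, plus strand: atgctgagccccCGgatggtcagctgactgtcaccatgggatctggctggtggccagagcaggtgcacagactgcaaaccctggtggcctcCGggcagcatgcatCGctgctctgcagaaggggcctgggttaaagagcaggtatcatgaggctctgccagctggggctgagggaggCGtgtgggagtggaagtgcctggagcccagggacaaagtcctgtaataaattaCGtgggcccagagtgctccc
MYO7B, second start, chr2:127619755-127620004, plus strand: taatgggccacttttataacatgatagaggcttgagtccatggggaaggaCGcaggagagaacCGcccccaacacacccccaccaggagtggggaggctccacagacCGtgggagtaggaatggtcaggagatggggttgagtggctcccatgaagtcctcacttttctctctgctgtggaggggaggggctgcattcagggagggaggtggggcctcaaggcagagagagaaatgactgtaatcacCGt
MYH9, chr22:36387968-36388217, minus strand: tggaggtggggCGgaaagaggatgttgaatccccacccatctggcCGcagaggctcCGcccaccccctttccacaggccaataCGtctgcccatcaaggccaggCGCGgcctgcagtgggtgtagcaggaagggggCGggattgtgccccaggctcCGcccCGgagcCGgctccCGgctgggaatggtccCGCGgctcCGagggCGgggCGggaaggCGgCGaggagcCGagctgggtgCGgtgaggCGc
The stretches of MYO7B held 5 and 4 CpG, and that of MYH9 held 21. Over the whole windows the ratio of observed to expected CpG was 0.188 and 0.253 for MYO7B and 0.687 for MYH9. The median was 0.751 over the 31 windows of myosin genes that passed the filter, 0.284 over the 26 windows of those that did not, and 0.579 over all 35116 windows. A ratio over 0.6 was found in 21 of 31, 5 of 26 and 48.8% of windows, respectively. Both windows of MYO7B lay below the median of the genes that did not pass the filter. Of the 8 myosin genes with the largest changes, MYH15 (0.167) and MYLK (0.211) also had CpG-poor windows, while MYO5A (0.973) did not. Ratios are not given here for MYO18A and MYO1C, which were also among the 8. The MYLK window is at a start deep inside the gene, not that of its longest transcripts, and MYL9 and MYO7A were among the genes without a window.

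The FOXO core motif GTAAACA, on either strand, was in 0 of the 57 myosin windows and in 3.42% of all windows. The TCF/LEF core CTTTGAT was in 3 of 57 (5.26%) and 2.62% of all windows. Those 3 belonged to MYO3B, MYO1H and MYH6, none of which passed the filter. A match is only these letters in this window, and no match says nothing of the factor.

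Nonmuscle myosin II was the main myosin of these cells. MYH9 (ENSG00000100345, chr22:36281277-36388067, minus strand), the heavy chain of nonmuscle myosin IIA, had the highest level of all myosin genes, at 263, 248 and 255 FPKM in DMSO and 283, 288 and 291 FPKM in AS1842856. It rose by a small amount, 0.17 on the log2 scale (SE 0.03, adjusted p = 4.13e-07), with every treated library above every control. MYH10 (chr17:8474205-8630761, minus strand), the heavy chain of nonmuscle myosin IIB, had 23.3, 23.3 and 23.0 FPKM in DMSO and 21.9, 22.3 and 21.8 FPKM after treatment. The treated libraries were all lower, but the difference of -0.08 (SE 0.04) did not pass the test (adjusted p = 0.0713). MYH14, the heavy chain of nonmuscle myosin IIC, had 0 counts in every library, which allows at most 3 counts a library, or between 0.131 and 0.195 CPM. Of the summed heavy chain FPKM, MYH9 made up 91.7% ± 0.253 in DMSO and 92.9% ± 0.119 in AS1842856 (SD, n = 3 each), and MYH10 the rest. The groups did not overlap (exact permutation test, two-sided p = 0.1, the smallest that 3 against 3 libraries can give).

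Most light chains fell. MYL9 (chr20:36541484-36551447, plus strand), the regulatory light chain named for smooth muscle, had 72, 68.4 and 71.9 FPKM in DMSO and 37.1, 36.2 and 36.0 FPKM in AS1842856. The groups were far apart, and the gene fell by 0.96 on the log2 scale (SE 0.04, adjusted p = 1.22e-63). MYL12B, a widely expressed regulatory light chain, had 110, 112 and 104 FPKM in DMSO and 72.1, 77.5 and 76.1 FPKM after treatment. It fell by 0.53 (SE 0.04, adjusted p = 3.27e-30). MYL12A, its close paralog at the neighboring locus on chromosome 18, had 71.1, 72.6 and 70.3 FPKM against 57.8, 58.9 and 62.0 FPKM. Its fall was smaller, at 0.26 on the log2 scale (SE 0.04, adjusted p = 2.39e-10), and the groups again did not overlap. MYL12A and MYL12B share 2.25% and 3.94% of their 50-base words with each other, so a small part of their reads could be assigned to either.

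In DMSO MYL12A and MYL9 had like FPKM (71.3 and 70.7, overlapping libraries), and in AS1842856 MYL9 was the lower, below MYO1C as well. MYL9 went from 28.2% ± 1.08 to 21.3% ± 0.797 of the summed regulatory light chain FPKM, and MYL12A from 28.5% ± 0.33 to 34.8% ± 0.743 (exact permutation p = 0.1 for both, the smallest possible). MYL12B held 43.3% and 43.9%, a difference within the spread of the libraries (exact permutation p = 0.5). The summed regulatory light chain level was 251 ± 3.93 FPKM in DMSO and 171 ± 3.76 FPKM in AS1842856, 68.3% of the control. Per unit of nonmuscle heavy chain FPKM it went from 0.901 ± 0.0278 to 0.553 ± 0.00434 (exact permutation p = 0.1). These are ratios of transcript levels whose size depends on the exon bases that FPKM divide by, and protein was not measured here.

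**Figure D2:**
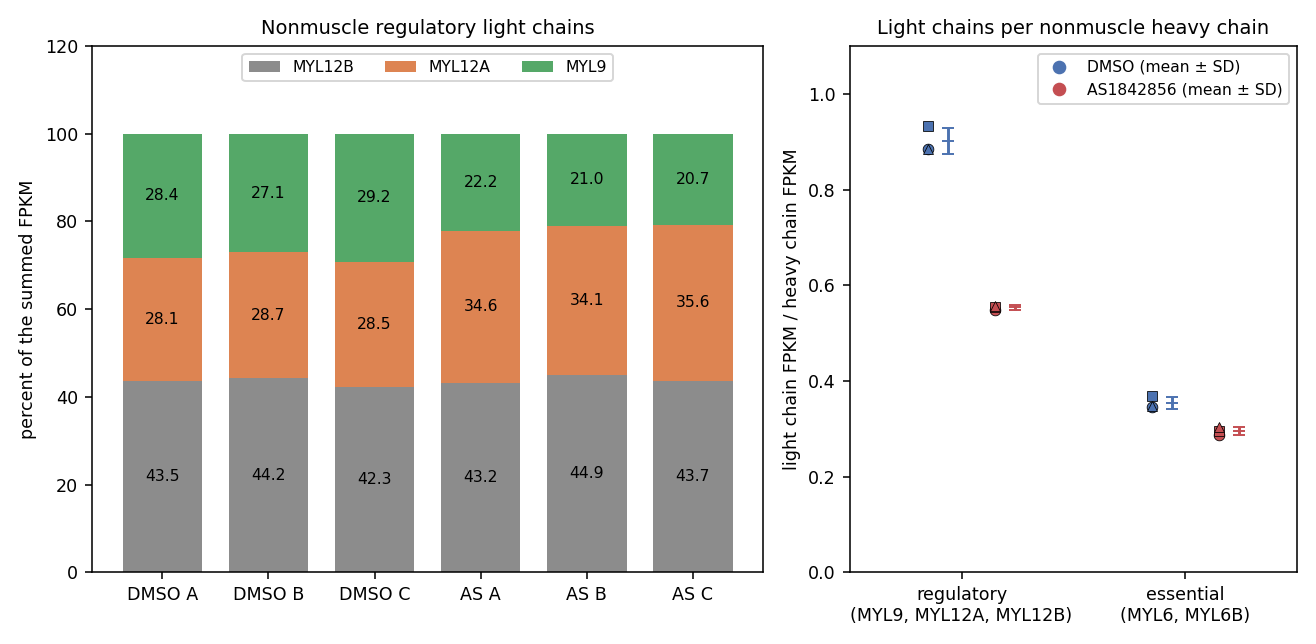
Left, the percent of the summed FPKM of MYL9, MYL12A and MYL12B held by each gene in each of the 6 libraries. Right, the summed FPKM of regulatory (MYL9, MYL12A, MYL12B) and essential (MYL6, MYL6B) light chains divided by the summed FPKM of nonmuscle heavy chains (MYH9, MYH10), with 1 point per library and the mean ± SD. MYL9 took between 27.1% and 29.2% in DMSO and between 20.7% and 22.2% in AS1842856, and the regulatory ratio went from a mean of 0.901 to 0.553.

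The summed level of the essential light chains per unit of nonmuscle heavy chain FPKM went from 0.354 ± 0.0132 to 0.295 ± 0.00834 (SD, n = 3 each), with no overlap (exact permutation p = 0.1, the smallest possible). MYL6, the main essential light chain of nonmuscle and smooth muscle myosin, had 90.1, 91.4 and 87.1 FPKM in DMSO and 77.3, 81.2 and 84.8 FPKM in AS1842856. It fell by 0.14 on the log2 scale (SE 0.04, adjusted p = 0.000194), and 514 of its exon bases overlap SMARCC2 on the opposite strand. MYL6B, at 8.82, 8.64 and 9.60 FPKM in DMSO and 10.1, 10.3 and 10.3 FPKM after treatment, was higher by 0.18 (SE 0.07, adjusted p = 0.0261). That call was lost under 6 of 15 alternatives. Among them were the fits without DMSO replicate A (adjusted p = 0.0930), DMSO replicate B (0.105), AS1842856 replicate B (0.0714) or AS1842856 replicate C (0.0650), and DESeq2 (0.104). MYL6B lies next to MYL6 on the same strand and overlaps it by 89 exon bases. MYL5, a low regulatory light chain, had 0.905, 0.915 and 0.833 FPKM against 0.499, 0.718 and 0.427 FPKM, a fall of 0.66 (SE 0.21, adjusted p = 0.00506). Its exons overlap by 579 bases those of ATP5ME on the opposite strand, which had 2342 counts in all libraries against 354 for MYL5, and whether counting used strand is not given in the sources used here. In all, 5 of the 6 light chains tested were called lower and 1, MYL6B, higher (28.4% and 27.6% of all genes tested).

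MYLK (ENSG00000065534, chr3:123610049-123884331, minus strand) encodes the calcium- and calmodulin-dependent kinase that phosphorylates the regulatory light chains of smooth muscle and nonmuscle myosin. Its level was 1.51, 1.49 and 1.33 FPKM in DMSO and 0.461, 0.566 and 0.530 FPKM in AS1842856. The groups did not overlap, and MYLK fell by 1.46 on the log2 scale (SE 0.09, adjusted p = 3.40e-40). Its FPKM is low for its counts, 737, 512 and 549 in DMSO, because the deposited values divide by all annotated exon bases of a gene, 22167 for MYLK. MYLK2, the kinase of skeletal muscle, had 0.883, 0.760 and 0.773 FPKM against 1.06, 0.936 and 1.23 FPKM. The treated libraries were all higher, but the difference of 0.40 (SE 0.23) did not pass the test (adjusted p = 0.12). MYLK4 had 0.127, 0.256 and 0.185 FPKM against 0.0887, 0.165 and 0.211 FPKM, with overlapping groups and a log2 fold change of -0.24 (SE 0.37, adjusted p = 0.605). MYLK3, the cardiac kinase, had between 1 and 5 counts a library and was not tested.

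The CArG box, the motif bound by serum response factor in many contractile genes, was in 4 of the 57 myosin windows (7.02%) and in 1.29% of all windows. Of those 4, MYLK and MYO1E passed the filter, while MYL7 had 1 count in all and MYO1A none. Both MYLK and MYO1E fell, as did 28.4% of all genes tested, and a link between the box and these falls was not tested. MYL9 had no window in the table. The 250 bases before each of these starts are shown with the CArG box in capitals, at bases -94 to -85 for MYLK and -31 to -22 for MYO1E counted from the transcript start.
MYLK, chr3:123620549-123620798, minus strand: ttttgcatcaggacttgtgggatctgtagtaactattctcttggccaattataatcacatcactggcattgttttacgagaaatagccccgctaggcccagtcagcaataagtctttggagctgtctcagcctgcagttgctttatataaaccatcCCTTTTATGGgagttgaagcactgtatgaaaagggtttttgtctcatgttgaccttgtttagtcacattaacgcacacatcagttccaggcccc
MYO1E, chr15:59372872-59373121, minus strand: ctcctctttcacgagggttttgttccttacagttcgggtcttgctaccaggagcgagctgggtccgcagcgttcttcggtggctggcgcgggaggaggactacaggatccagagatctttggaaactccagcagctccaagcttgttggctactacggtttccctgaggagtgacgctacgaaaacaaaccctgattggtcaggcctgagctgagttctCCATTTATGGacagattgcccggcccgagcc
The only MYLK start in the table, at base 123620548, lies deep inside the gene and close to its 3′ end, so this window is not that of the longest transcripts, and gene counts do not separate the transcripts.

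Of the heavy chains named for striated or smooth muscle, MYH15 was the exception. MYH15 (ENSG00000144821, chr3:108380369-108529322, minus strand), a sarcomeric-type heavy chain whose role in human tissue is little understood, had 0.772, 0.714 and 0.605 FPKM in DMSO and 2.63, 3.35 and 2.98 FPKM in AS1842856. Every treated library was above every control, and the gene rose by 2.10 on the log2 scale (SE 0.11, adjusted p = 4.26e-47), the largest rise among the myosin genes tested. None of its 50-base words was shared with another gene. MYH7B had between 8 and 15 counts in DMSO and between 10 and 21 counts in AS1842856, a difference of 0.67 (SE 0.42) that did not pass the test (adjusted p = 0.176). MYH11, the smooth muscle heavy chain, had between 5 and 11 counts and between 7 and 16 counts (0.34, SE 0.49, adjusted p = 0.583), and its exons overlap those of the far more abundant NDE1 on the opposite strand. The other striated heavy chains were silent or nearly so: MYH1, MYH2, MYH6, MYH7, MYH8 and MYH13 had 0 counts in every library, MYH4 had 1 and MYH16 had 2 in all, and MYH3 had between 3 and 15 counts a library. Among 10 markers of skeletal and cardiac muscle, CKM, MYOD1, MYOG, TNNT3, TNNI2, MYH6 and MYL2 were at 0, and the list summed to between 6.08 and 6.51 CPM in DMSO and between 6.36 and 7.07 CPM in AS1842856. The 7 smooth muscle markers summed to between 113 and 124 CPM in DMSO and between 97.1 and 98.6 CPM in AS1842856, with none at 0 in every library. Nearly all of that sum was SMTN, at between 109 and 120 CPM and between 93.9 and 96.0 CPM, while DES had at most 1 count in any library, and the markers' part in the falls of MYL9 and MYLK was not tested.

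MYO18A showed the largest fall among the 26 genes tested. MYO18A (ENSG00000196535, chr17:29071124-29180412, minus strand) encodes a heavy chain with little motor activity that links the Golgi to actin. Its level was 2.74, 2.52 and 2.47 FPKM in DMSO and 0.686, 0.636 and 0.681 FPKM in AS1842856. The groups were well apart, and the gene fell by 1.96 on the log2 scale (SE 0.09, adjusted p = 2.43e-60). TIAF1, on the same strand, lies over 1394 of its exon bases but had only 118 counts in all libraries against 2772 for MYO18A. Its relative MYO18B, known from muscle, had between 0 and 3 counts a library.

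Of the class I heavy chains, which link membranes to actin, MYO1C and MYO1E fell. MYO1C (chr17:1464186-1492812, minus strand), a motor of exocytosis and membrane tension, had 63.7, 59.4 and 60.9 FPKM in DMSO and 37.6, 38.0 and 39.4 FPKM in AS1842856, a fall of 0.68 (SE 0.04, adjusted p = 8.40e-50). It was the most abundant unconventional myosin gene in both groups. MYO1E, a motor of endocytosis, had 9.07, 8.48 and 8.41 FPKM against 6.10, 5.94 and 5.41 FPKM, and fell by 0.58 (SE 0.05, adjusted p = 6.16e-22). In neither gene did the groups overlap.

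MYO5A (ENSG00000197535, chr15:52307283-52529050, minus strand), the class V motor that carries melanosomes and other vesicles, rose most among the unconventional myosins. It had 4.90, 5.30 and 5.14 FPKM in DMSO and 9.13, 9.47 and 8.62 FPKM in AS1842856. All treated libraries were higher, by 0.83 on the log2 scale (SE 0.05, adjusted p = 2.22e-44). Its relative MYO5C had between 5 and 19 counts a library, with overlapping groups and a difference of -0.18 (SE 0.45, adjusted p = 0.752). MYO5B had between 0 and 10 counts and was not tested.

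The other unconventional motors changed by smaller amounts. MYO6, which walks toward the minus end of actin filaments, went from 3.47 ± 0.178 to 2.86 ± 0.00203 FPKM, a fall of 0.28 (SE 0.08, adjusted p = 0.000694). MYO10, the filopodial motor, went from 21.8 ± 0.419 to 16.4 ± 0.789 FPKM, a fall of 0.41 (SE 0.04, adjusted p = 7.22e-23). MYO19, the motor of mitochondria, went from 6.08 ± 0.15 to 6.87 ± 0.384 FPKM, a rise of 0.18 (SE 0.05, adjusted p = 0.000703), and it overlaps ZNHIT3 and PIGW on the opposite strand. The class IX motors carry a GTPase-activating domain in their tails. MYO9A fell from 0.941 ± 0.0759 to 0.611 ± 0.043 FPKM (-0.62, SE 0.10, adjusted p = 6.71e-09). MYO9B stayed at 19.7 FPKM in both groups, with a log2 fold change of 0.00 and a 95% interval from -0.07 to 0.08 (adjusted p = 0.964).

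**Figure D3:**
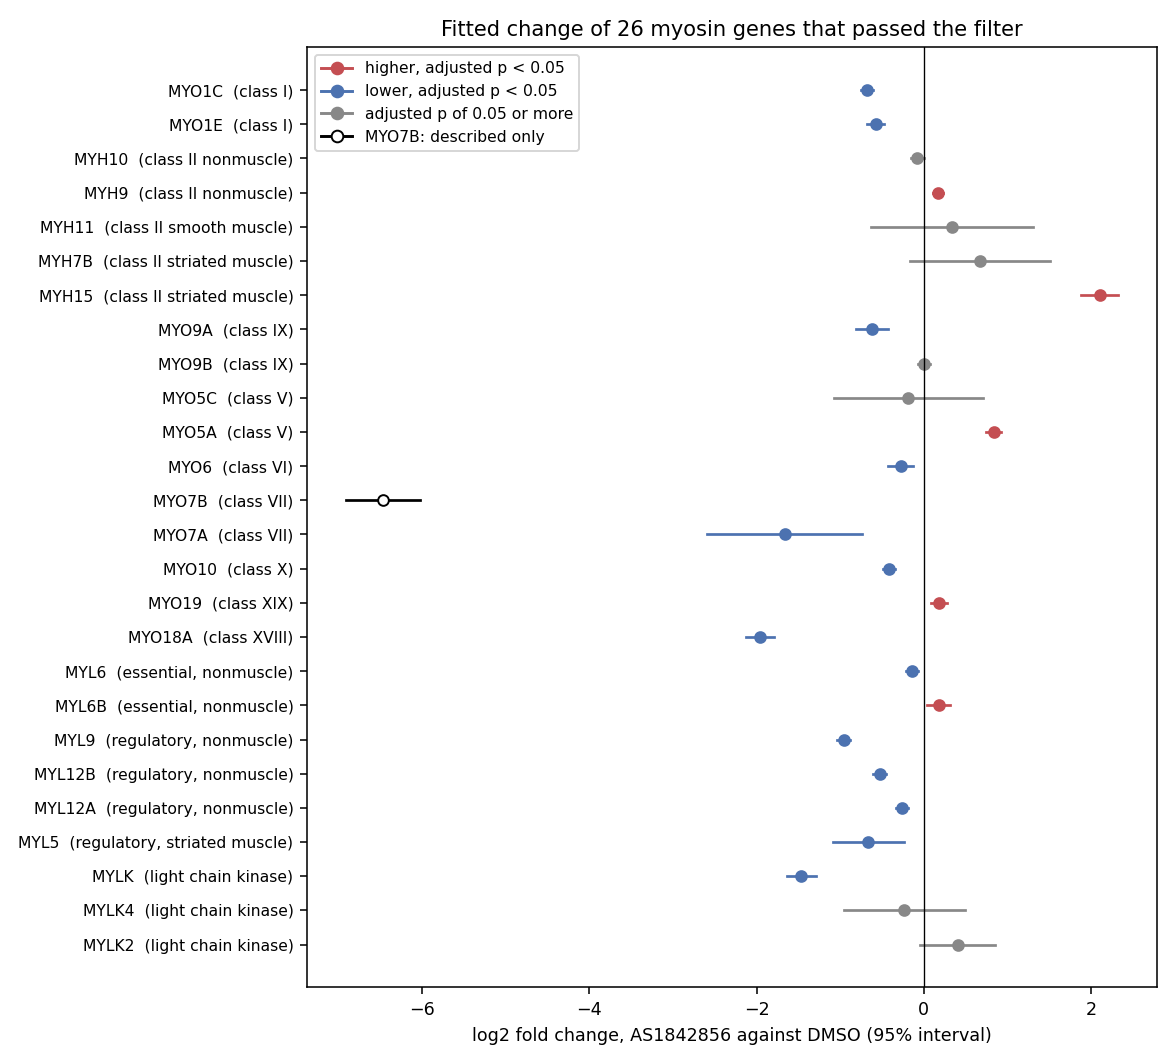
Log2 fold change of AS1842856 against DMSO with its 95% interval for 26 of the 27 myosin genes that passed the filter, by class, from the edgeR fit to counts of 3 libraries a group. The interval of MYO7B is narrower than counting error on its few treated counts allows. Apart from MYO7B, drawn open, 13 genes fell and 7 did not pass the test, and the class VII genes, MYO18A and MYLK lie farthest to the left and MYH15 farthest to the right.

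The myosin genes not named so far were at or near 0. MYO1F had between 10 and 13 counts in DMSO and between 4 and 8 counts in AS1842856, and MYO1H, with between 2 and 3 counts in DMSO, had 12, 4 and 1 counts after treatment. MYO1D, MYO1G, MYO3B, MYO15A, MYO15B, MYO16, MYL4 and MYL7 had at most 7 counts in any library. MYO1A, MYO3A, MYL1, MYL2, MYL3 and MYL10 had none. None of these genes was tested. The treated libraries were all lower for MYO1F and for MYO1D, which had 2, 3 and 2 counts in DMSO and 1, 0 and 1 counts in AS1842856. They were all higher for MYO15B, which had 0, 2 and 1 counts in DMSO and 4, 3 and 4 counts in AS1842856.

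Ordered by mean FPKM in DMSO, the 27 genes ran from MYH9 (255), MYL12B (109), MYL6 (89.5), MYL12A (71.3), MYL9 (70.7) and MYO1C (61.3) down to MYO5C (0.0667) and MYH11 (0.0289). Neighbors in that order had overlapping libraries in 8 of 26 pairs in DMSO, among them MYL12A with MYL9 and MYL6B with MYO1E, and in 10 of 26 pairs in AS1842856, among them MYL6 with MYL12B. MYLK moved from rank 18 to rank 21 and MYO18A from rank 16 to rank 18, while MYH15 moved from rank 22 to rank 15. The sum over all myosin heavy chains was 433 ± 11 FPKM in DMSO and 440 ± 3.7 FPKM in AS1842856, most of it MYH9. Outside class II the sum was 154 ± 3.28 FPKM and 128 ± 1.31 FPKM.

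**Figure D4:**
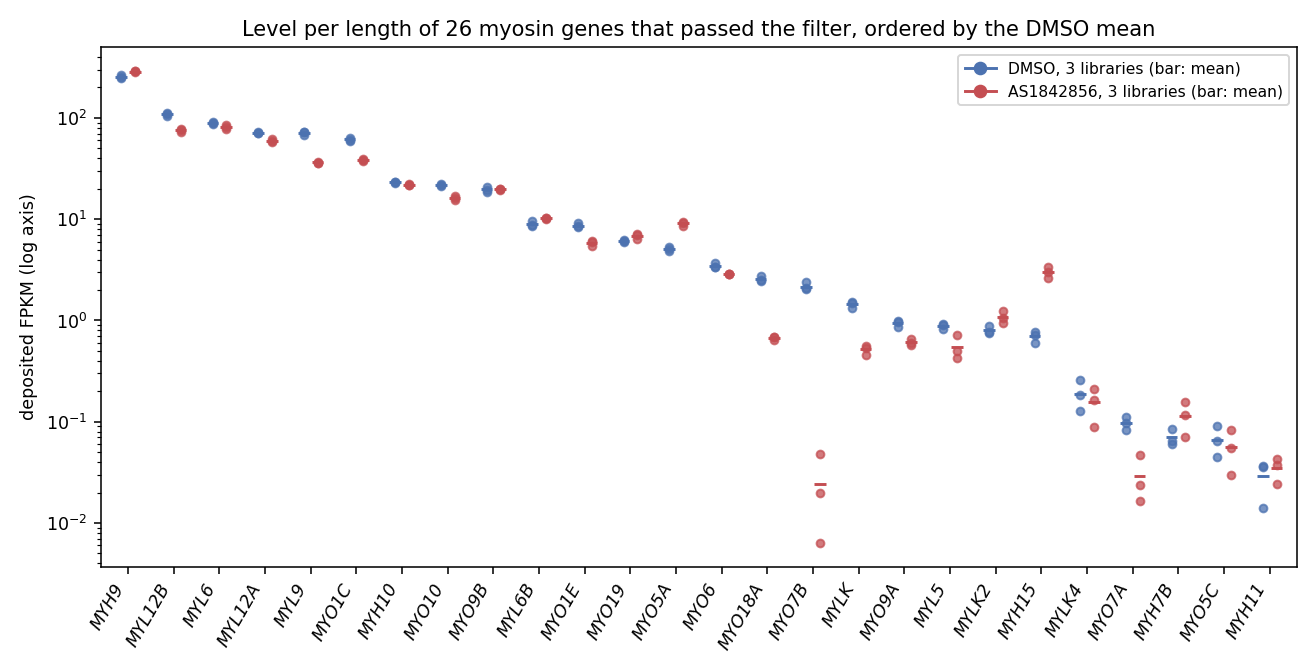
Deposited FPKM on a log axis for 26 of the 27 myosin genes that passed the filter, ordered by the DMSO mean, with 1 point per library and a bar at the mean of each group. MYH9 leads in both groups at 255 and 287 FPKM, and MYO7B drops from rank 17 to rank 27.

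Genes that set the phosphorylation of the regulatory light chain changed in both directions. Of 22 such genes, 19 were tested, 4 rose and 11 fell (27.6% and 28.4% of all genes tested), with a median log2 fold change of -0.11. RHOB, a small GTPase, rose by 0.96 (SE 0.05, adjusted p = 2.99e-50), while its relative RHOC fell by 0.63 (SE 0.04, adjusted p = 1.22e-37). CALM2, a calmodulin gene, fell by 0.54 (adjusted p = 1.94e-35). The kinases ROCK1 and ROCK2 fell by only 0.12 and 0.13 (adjusted p = 0.0186 and 0.0193). Of the targeting subunits of myosin phosphatase, PPP1R12A fell by 0.28 (adjusted p = 4.92e-09), and PPP1R12B and PPP1R12C rose by 0.31 and 0.39 (adjusted p = 0.00333 and 7.76e-15). The count of genes that fell rests on small changes: it was 6 with DESeq2, which called 35.8% of all genes it tested in either direction, and 7 without AS1842856 replicate C.

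Of 27 genes for cargo, adaptor and assembly partners of myosins, 18 were tested, 1 rose and 9 fell, with a median of -0.20. The share called was 55.6%, against 56.0% of all genes tested. DAB2, an endocytic adaptor of MYO6, fell by 1.49 (SE 0.05, adjusted p = 3.19e-77). S100A4, which binds the tail of MYH9, fell by 0.89 (SE 0.25, adjusted p = 0.00108), and CIB2, a partner of class VII motors in hair cells, fell by 0.78 (SE 0.28, adjusted p = 0.0134). UNC45A, the chaperone that folds nonmuscle myosin, did not pass the test at 0.06 (SE 0.05, adjusted p = 0.344).

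The genes of actin filaments and their contractile partners moved in 1 direction. Of 21 genes, 19 were tested, 0 rose and 18 fell, against 28.4% of all genes that fell, and the median was -0.45 against 0.003 for all genes tested. This list, like the others, was chosen with earlier results of these data known. TPM1, a tropomyosin, fell by 1.76 on the log2 scale (SE 0.04, adjusted p = 3.91e-128), FLNC, a filamin, by 1.60 (SE 0.27, adjusted p = 1.11e-07) and ACTC1, an alpha-actin, by 1.13 (SE 0.08, adjusted p = 5.80e-30). Only TPM3 did not pass the test, at 0.03 (SE 0.03, adjusted p = 0.481).

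**Figure D5:**
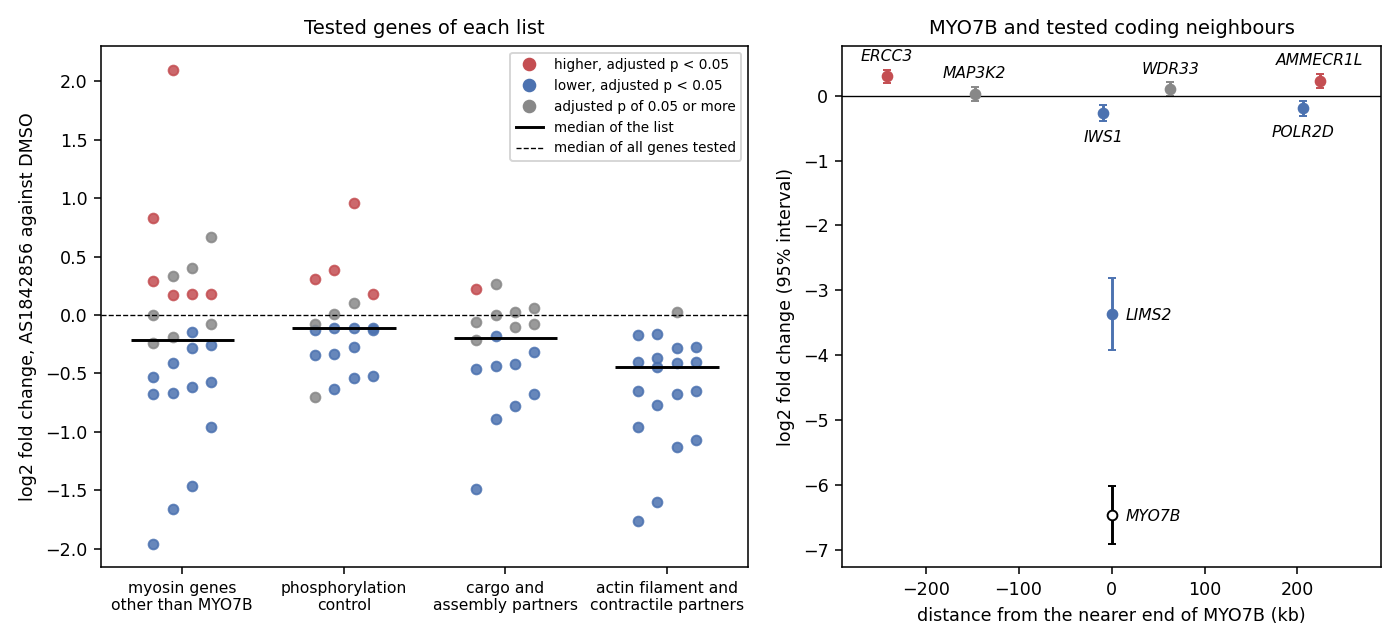
Left, log2 fold changes of the tested genes of each list, with the list's median as a bar and the median of all genes tested as a dashed line. Medians were -0.21 for the myosin genes other than MYO7B, -0.11, -0.20 and -0.45 for the lists that follow. Right, log2 fold change with its 95% interval against distance from MYO7B in kb, with MYO7B itself drawn open at -6.47 and LIMS2 at -3.37. The interval of MYO7B is narrower than counting error on its few treated counts allows.

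The nearest coding neighbor of MYO7B fell as well. LIMS2 (ENSG00000072163, chr2:127638381-127681786, minus strand), an adaptor of focal adhesions, ends 651 bases beyond the end of MYO7B and is read toward it. It had 116, 74 and 97 counts in DMSO and 8, 9 and 11 counts in AS1842856. The groups were far apart, and it fell by 3.37 on the log2 scale (SE 0.28, adjusted p = 5.06e-25). LIMS2 passed the filter on low counts through its DMSO libraries, at 4.82 to 5.28 CPM against 0.394 to 0.617 CPM in AS1842856. Being higher in DMSO was thus part of why LIMS2 was tested, so its adjusted p is not independent support for a fall. GPR17, a receptor gene inside the span of LIMS2 on the opposite strand, had 16, 3 and 8 counts in DMSO and 0 in each treated library, too few to be tested. The other coding genes within 250 kb changed little: IWS1, 8.9 kb upstream, fell by 0.26 and POLR2D by 0.19, ERCC3 and AMMECR1L rose by 0.30 and 0.23, and MAP3K2 and WDR33 did not pass the test at 0.03 and 0.10 (adjusted p = 0.715 and 0.116). PROC had between 0 and 5 counts a library and SFT2D3 had 0.

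The 5 genes whose levels followed MYO7B most closely over the 6 libraries, by Pearson's r of log2(CPM + 0.5) and with no test, were RFTN1, SRGN, MTMR12, RPS27L and RAVER2, from 0.9998 down to 0.9996. Their own log2 fold changes were -1.29, -2.50, -0.47, -1.29 and -1.38. Since the points are 2 groups of 3, a high r is common: 534 of 14337 genes had an r over 0.99.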

How the data were processed

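RNA-Seq was measured in 6 BT549 libraries, 3 biological replicates per group, grouped by the labels' treatment. The study names CASAVA and STAR for base calls and mapping; the submitters' processing notes also name Bowtie 0.12.2 and GRCh38. The counting tool and strand use are not given in the sources used here. The authors deposited raw counts per gene and FPKM for 25015 genes. FPKM corresponded to division by all exon bases of GENCODE 29 (Ensembl 94), whose symbols and positions were used.

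Counts were fitted with edgeR 4.0.16 in R 4.3.3 (filterByExpr, minimum count 10 and total 15, TMM, robust glmQLFit and glmQLFTest, Benjamini-Hochberg over 14338 genes, threshold 0.05). The SE is the log2 fold change divided by the square root of F. For MYO7B, with 12 treated counts, this SE is too small. Shares were compared by exact permutation tests. Scripts were tested on simulated data. Totals of 15289500 to 22981832 counts gave a biological coefficient of variation of 0.0374. Intervals and floors of 3 counts reflect counting error alone, as PCR copies are not separate molecules.

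Members, lists and the rule for named genes were chosen with earlier results of these data known. The rule took the 8 largest changes, the nonmuscle myosin II chains and the kinases in full, and of each list the 3 largest calls plus the ROCK and PPP1R12 genes. UNC45A, TPM3, CDHR2, WHRN, CALML4, CDHR5, CDH23, PCDH15 and the scaffolds at 0 were named after their values were seen. Values of 1 myosin gene and 1 marker gene, which are in the counts and sums, are not reported here. Promoters came from RefSeq (GRCh38.p14). Alternatives were DESeq2 1.42.0, other scalings and filters, a replicate block, limma 3.58.1 on FPKM and each library left out.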

Additional observations from a re-analysis of the deposited data

How the results depend on the processing

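The counts of myosin genes that rose and fell, MYO7B left out, were 5 or 6 and between 11 and 14 under every alternative. For phosphorylation control, the count of genes that fell went from 11 to 6 with DESeq2, to 7 with limma on log2(FPKM + 0.1) and to 6 with limma on log2(FPKM + 1) without a filter, and lay between 7 and 10 when a library was left out. The log2 fold change of MYO7B was -1.63 with limma on log2(FPKM + 1), with or without a filter, and -4.19 on log2(FPKM + 0.1), scales on which the pseudocount shrinks low levels, and lay between -7.21 and -6.07 when a library was left out (-7.21 without AS1842856 replicate A, -6.07 without AS1842856 replicate C). On log2(FPKM + 1) MYO18A was at -1.10, MYLK at -0.68, MYH15 at 1.23 and, without a filter, MYO7A at -0.093 (adjusted p = 0.0507). Genes that did not pass the test and lay near 0 changed sign. MYO9B was -0.0013 with library totals alone, -0.011 with no filter and -0.0029 among genes with a mean of at least 50 counts, and lay between -0.032 and 0.039 when a library was left out. Left out in turn, the libraries put MYLK4 between -0.50 and 0.012 (above 0 without DMSO replicate B or AS1842856 replicate A), MYO5C between -0.61 and 0.10 (above 0 without DMSO replicate C or AS1842856 replicate A) and MYH11 between -0.046 and 0.57 (below 0 without DMSO replicate A). The cause was not tested. Of the single myosin genes, MYL6B, MYL5, MYO19 and MYO7A lost their call under some alternative and MYH10 gained it under 2 (adjusted p = 0.0445 among genes with a mean of at least 50 counts and 0.0366 with limma on log2(FPKM + 1) without a filter). Shares of the nonmuscle chains were recomputed without each library, a check added after the data were seen, and kept their direction.

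Same-lettered libraries did not deviate together (correlations of 0.026, -0.011 and -0.013 for A, B and C, with only A highest with its own letter), so the letters were not taken to pair them. With the letter as a replicate block 7862 genes were called against 8029, 6 myosin genes rose and 13 fell, the same genes, and MYO7B was at -6.48. The actin list lost 1 of its 18 calls. Depth limits the genes with few counts, such as MYO7A, MYH11, MYH7B, MYO5C and MYLK4.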
